A study of Bos taurus with 60 samples.

Results

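The miR-2284 family is a group of microRNAs (miRNAs) annotated in cattle and other ruminants. A miRNA is a short RNA that guides the silencing complex to messenger RNAs, which it recognises mainly through its seed, bases 2 to 8 from the 5′ end. The family carries many closely related copies named by letters, and its letters run on into the miR-2285 family, so sequencing reads from these genes are hard to assign to 1 copy. Members were taken as the mature miRNAs whose annotated name begins with bta-miR-2284. They numbered 31 of the 1030 mature miRNAs measured, and they came from 46 of the 1155 combinations of a mature miRNA and a precursor that were tabulated for every breed.

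The measurements were small RNA sequencing counts from the livers of 60 castrated male cattle (steers), 20 each of Angus, Charolais and Kinsella Composite (KC), a composite beef breed. All steers were fed 1 finishing diet of barley grain, barley silage and pellets, and the livers were taken at slaughter. In each breed 6 steers were labelled low-RFI, 6 high-RFI and 8 carried no RFI group. Residual feed intake (RFI) is the difference between the feed an animal eats and the feed its size and growth predict, so a low-RFI steer is the more feed-efficient one. Per the study's methods, all profiled steers came from the high or low end of RFI in their breed. Those given an RFI group were chosen for extreme RFI and also for miRNA expression that matched the rest of their breed. Spreads and p-values within the RFI groups are therefore for steers selected partly on these data. The breeds were slaughtered at different ages, the Charolais oldest and the KC youngest, so breed and age cannot be told apart here. The sequencing pool of each steer was not given in the sources used here.

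Total counts over all mature miRNAs were 1930859 to 6751781 per steer, with medians of 3720336, 4405876 and 5538046 in Angus, Charolais and KC. Levels are given as CPM (counts scaled to a common library total) after TMM scaling, and 3 counts, taken as the limit of detection in 1 steer, corresponded to 0.437 to 1.48 CPM on that scale. Within a breed, the counts of any pair of steers had a Spearman correlation of 0.914 to 0.968, and no library stood apart. The liver miRNA miR-122 was at 4319 to 13974 CPM in every steer. Of the other hepatocyte markers, miR-192 was at 162258 to 284128 CPM and miR-885 at 7.84 to 71.5 CPM. The neural miR-124a and the muscle miR-206 did not exceed 0.421 and 0.305 CPM. The other neural and muscle markers were higher, miR-9-5p at 4.38 to 16.8 CPM and miR-1 at 0.226 to 7.14 CPM. Red-cell miR-486 and miR-451 were at 3145 to 14206.5 and 190 to 1115 CPM. Leukocyte miR-142-5p and miR-223 were at 1753 to 4787 and 14.3 to 78 CPM. Mesenchymal miR-143 and miR-145 were at 129799 to 256622 and 170 to 612 CPM. Epithelial miR-200a and miR-200b were at 16.5 to 75.1 and 5.72 to 21.8 CPM.

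The mature sequences are shown first, because several members differ by few bases. A sequence was at hand for 23 of the 31 members. The 8 members below share the seed AAAAGUU (capitals mark bases 2 to 8) and differ in base 1 or from base 9 onward.
miR-2284ab: uAAAAGUUugguuggguuuuu
miR-2284c: aAAAAGUUcguuuugguuuu
miR-2284d: aAAAAGUUcguuaggguuuuuc
miR-2284j: gAAAAGUUcguucagguuuu
miR-2284k: gAAAAGUUcggucggguuuuu
miR-2284m: gAAAAGUUuguucggguuuu
miR-2284n: aAAAAGUUuauucggguuuuu
miR-2284v: aAAAAGUUcguuugggguuu

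Other abundant members, and b, which is called between breeds below, fall into other seed groups. The pair z and aa share 1 seed, the trio b, u and y another, and x, w and ac each have a seed of their own within the family.
miR-2284x: uGAAAAGUucguucggguuuu
miR-2284y: aAAAGUUCguucggguuuuuc
miR-2284b: aAAAGUUCguuugguuuuuuc
miR-2284z: aAAAAAGUuuguuuggguuuuu
miR-2284aa: aAAAAAGUuuguuuggguuuu
miR-2284w: aAGAGUUUguucggguuucuc
miR-2284ac: aAAUGUUCgcuuggcuuuuucc

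The 23 sequences held 12 different seeds, with the largest seed group at 8 members. They ran from 20 to 23 bases and were rich in uracil, with a median of 45% U against 27.9% over the 588 expressed bovine miRNAs whose sequence was at hand. The run GUUCGUU occurred in 13 members, starting anywhere from base 3 to base 12, and in 4.25% of all 588 sequences. The variant GUUUGUU occurred in a further 5 members and in 1.19% of the sequences. Outside the family, 13 miRNAs had a seed found in a member, and 12 of these belonged to the miR-2285 family. These runs were chosen after reading the sequences.

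Many members nearly match another miRNA in sequence, inside or outside the family. How many of the other miRNAs have such a match was not counted. Allowing 1 mismatch and a shift of up to 2 bases over 18 or more aligned bases, 18 of the 23 members had at least 1 near-identical miRNA, in 15 pairs within the family and 36 pairs with miRNAs outside it. The sequence of miR-2284y matches miR-2284x without a mismatch over 19 bases once shifted by 2, so the same RNA body carries a different seed in each. Members z and aa are identical over all 21 bases of aa and differ only in length. Member ac matches miR-2285ai-5p over 20 bases after a shift of 1, and y matches miR-2285av over 20 bases with no shift.

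Detection of the family was the same in number in the 3 breeds. A member was counted as detected with at least 10 counts in total over the 20 steers of a breed. By this rule 21 of 31 members (67.7%) were detected in each breed, against 51.8%, 53.4% and 55.1% of all 1030 miRNAs in Angus, Charolais and KC. A core of 20 members was detected in all 3 breeds. Member e was detected in KC alone, at 11 counts in total, and h-5p in Angus and Charolais, at 11 and 13 counts. The remaining 9 members reached the rule in no breed, and miR-2284q had 0 counts in all 60 steers. These members had at most 3 counts in all but 1 of the 60 steers, so their differences in detection lie at the limit of depth.

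Abundance was concentrated in 1 member. miR-2284x was the most abundant by a wide margin, at 448 to 682 CPM over the 60 steers with a median of 521 CPM, and by its median it ranked 60th, 58th and 61st of all miRNAs in Angus, Charolais and KC. It made up 75.5% to 84.6% of the family's summed counts per steer. On CPM by library totals alone, without TMM scaling, the summed level of the family had medians of 660, 679 and 624 CPM in Angus, Charolais and KC, which is 0.0660%, 0.0679% and 0.0624% of the library. The 117 members of the miR-2285 family together had medians of 819, 818 and 860 CPM on the same scale.

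The next members were an order of magnitude lower. miR-2284z had a median of 48.3 CPM (range 34.7 to 65.1), miR-2284aa 18.8 CPM (13.8 to 28), miR-2284y 14.6 CPM (10.2 to 22), miR-2284ab 13.9 CPM (6.12 to 22.4) and miR-2284w 12.6 CPM (6.47 to 20.3). The ranges of y, ab and w overlapped almost entirely, so their order is not separated by the spread over steers. miR-2284ac followed at 4.95 CPM and miR-2284v at 3.06 CPM. Members k and b were at 2.36 and 2.10 CPM. These 10 members had counts in every steer, whereas the other 21 all had medians under 0.8 CPM. Detection at 1 CPM or more in at least 10 of 20 steers left 11 members in Angus, 12 in Charolais and 10 in KC. These are 35.5%, 38.7% and 32.3% of the members, against 36.3%, 36% and 36.5% of all miRNAs, so the gap seen under the looser rule was not seen under this one.

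**Figure D1:**
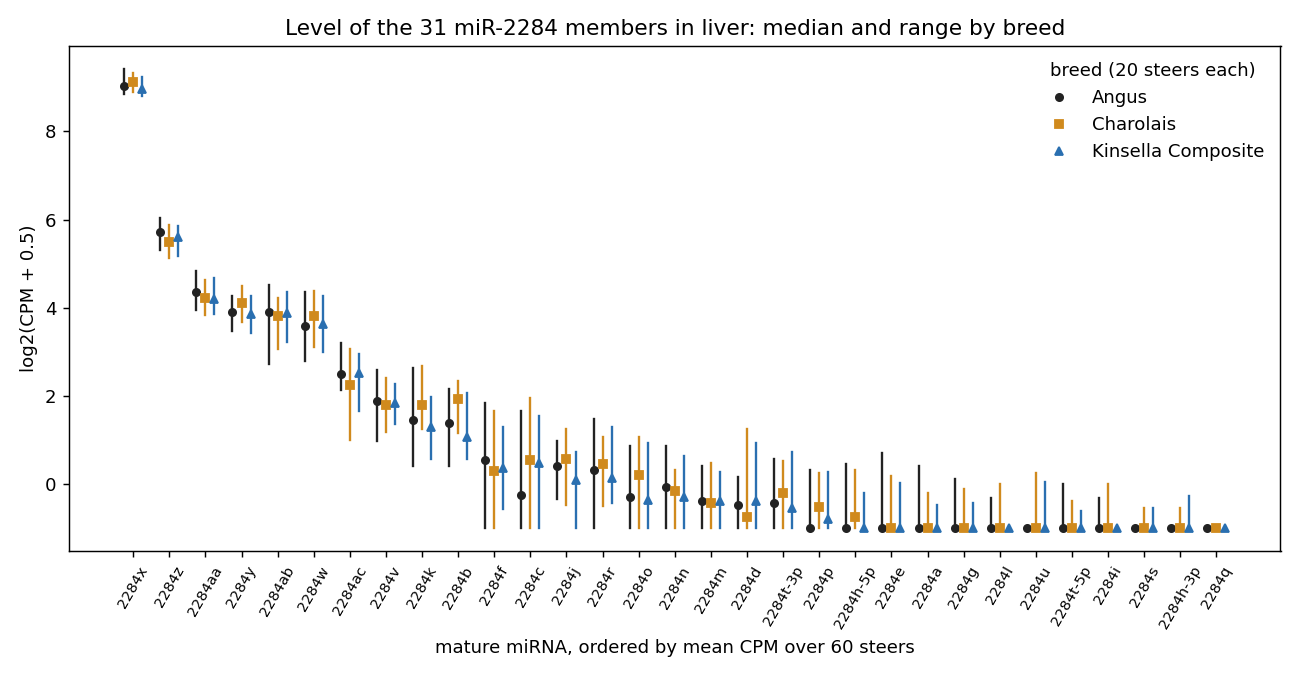
Level of each of the 31 members by breed, as log2(CPM + 0.5), with members ordered by their mean over 60 steers; symbols are medians and vertical lines the full range over 20 steers. miR-2284x lies far above the rest, 10 members have counts in all 60 steers, and the members on the right lie at the value of 0 counts.

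miR-2284x also varied little between steers. Its coefficient of variation was 9.16%, 8.03% and 7.24% in Angus, Charolais and KC. Among the miRNAs with a mean of at least 100 CPM in the same breed, these were the 15th lowest of 107, the 10th lowest of 105 and the 6th lowest of 108, where the median miRNA had 13.1%, 14.9% and 13.4%. The study used miR-2284x as a reference miRNA for quantitative PCR in KC. The lower members varied more within the breeds, with 11% to 14.1% for z and 14.8% to 16.5% for aa. The values were 22.3% to 42.2% for b and 30.3% to 49.7% for k, whose counts are small.

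Members did not vary together as a block. Over the 10 members with counts in every steer, the 45 pairwise Spearman correlations of log2 CPM, taken within breeds as deviations from the breed mean over 60 steers, ran from -0.20 to 0.68 with a median of 0.15. The highest was between z and aa, which share their sequence, and x and y reached 0.46. With miRNAs outside the family, ac and miR-2285ai-5p reached 0.97 and y and miR-2285av 0.70. The counts of miR-2285ai-5p were 1 to 1.25 times those of ac in each steer, and equal in 13 of 60 steers. These correlations describe pairs that share libraries, and whether reads were counted on both miRNAs was not tested for them.

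The tables for KC list 11 combinations of a member and a precursor that the tables for Angus and Charolais do not, over 5 members (aa, ac, e, h-5p and y). They are left out of every value above and below unless stated. The combination of miR-2284y with the precursor of miR-2284x had 1866 to 3353 counts per KC steer with a median of 2790, against a mean of 45.7 to 105 counts on the 7 precursors of y itself. miR-2284x on the same precursor had a median of 2790.5 counts, identical to y in 9 of 20 steers and never more than 4 counts apart. For aa, each of 7 added precursors belongs to z, and the counts equalled those of z in all 20 steers. For h-5p, 45 to 111 counts were listed on a precursor of y, equal to those of y in 19 of 20 steers, while h-5p on its own precursor had at most 2 counts. Member ac on the precursor of miR-2285ai had the counts of miR-2285ai-5p in all 20 steers. Member e had 0 to 7 counts on the precursor of f, equal to those of f in 5 of 20 steers and up to 6 counts apart.

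**Figure D2:**
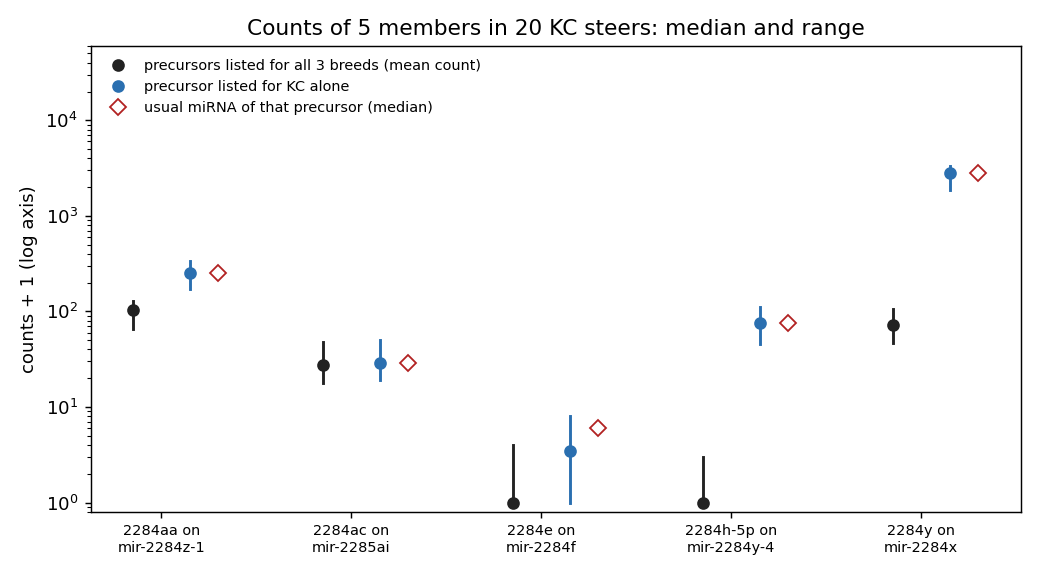
Counts in the 20 KC steers for 5 members, on the precursors tabulated for every breed (black, mean over precursors), on a precursor tabulated for KC alone (blue), and for the usual miRNA of that precursor (open diamonds, median), on a log axis of counts + 1; lines are ranges. For y the added precursor lies at a median of 2790 counts against 71.4, at the level of miR-2284x.

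The breed comparison asked which members differ among Angus, Charolais and KC livers. Lower levels in KC than in Charolais were called for b, k, y and x, and b was also higher in Charolais than in Angus. Member j was lower in KC too, but it is given as a description only, for the reason below. In bulk liver, fewer cells of a type and less RNA per cell cannot be told apart. Of the 31 members, 14 passed the filter of 1 CPM in at least 10 of 60 steers and were tested. With edgeR's quasi-likelihood F test over the 3 breeds, 5 of these 14 had a Benjamini-Hochberg adjusted p under 0.05, and over all 421 miRNAs tested the share was 14.3%. One of the 5, j, passed the filter only through the breed where it was highest. Among miRNAs that pass the filter also with any 1 breed set aside, a count added after seeing the data, 4 of 12 members (b, k, x and y) were called, against 14.6% of 398 miRNAs. In the miR-2285 family 6 of 54 tested miRNAs (11.1%) were called. No test was made of the difference between these shares.

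miR-2284b moved most. It had 1.73 to 4.60 CPM in Charolais (median 3.31), 0.840 to 3.99 CPM in Angus (median 2.12) and 0.993 to 3.72 CPM in KC (median 1.59). All 20 Charolais steers were above the KC median and 14 of 20 KC steers were below the lowest Charolais steer, with 1 KC steer (KC 16, at 3.72 CPM) standing above the rest of its breed, which did not exceed 1.96 CPM. The log2 fold change of KC over Charolais was -1.01 ± 0.15 (SE, n = 20 and 20, edgeR, adjusted p = 7.42e-07). Charolais over Angus was 0.61 ± 0.15 (edgeR, adjusted p = 0.0161). KC over Angus was -0.40 ± 0.16 (edgeR, adjusted p = 0.104).

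miR-2284k showed the same order at similar levels. Its ranges were 1.89 to 5.95 CPM in Charolais (median 2.99), 0.839 to 5.76 CPM in Angus (median 2.25) and 0.989 to 3.44 CPM in KC (median 1.97). The groups overlapped, but 19 of 20 KC steers were below the Charolais median. KC over Charolais was -0.78 ± 0.16 on the log2 scale (edgeR, adjusted p = 0.000625), and Charolais over Angus 0.48 ± 0.17 (adjusted p = 0.103).

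miR-2284j was close to the limit of detection, with at most 3 counts in 14 of 20 KC, 13 of 20 Angus and 7 of 20 Charolais steers. Its medians were 0.994 CPM in Charolais, 0.841 CPM in Angus and 0.567 CPM in KC. It reached 1 CPM in 10 Charolais, 6 Angus and 2 KC steers, so it passed the filter only through the Charolais steers, where it was highest. Its log2 fold change of KC over Charolais, -0.73 ± 0.22 (SE), is therefore given as a description.

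The more abundant y and x moved less. miR-2284y had 12.4 to 22 CPM in Charolais (median 16.8), 10.6 to 18.9 CPM in Angus (median 14.5) and 10.2 to 18.9 CPM in KC (median 14). For miR-2284x the ranges were 476 to 641 CPM in Charolais (median 558), 459 to 682 CPM in Angus (median 525) and 448 to 602 CPM in KC (median 498). For each of them 19 of 20 KC steers were below the Charolais median. KC over Charolais was -0.28 ± 0.07 for y (log2, edgeR, adjusted p = 0.00858) and -0.16 ± 0.04 for x (adjusted p = 0.00627), a level of 0.826 and 0.896 times that of Charolais. Adding the combinations tabulated for KC alone turned the y difference to 2.15 in favour of KC.

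**Figure D3:**
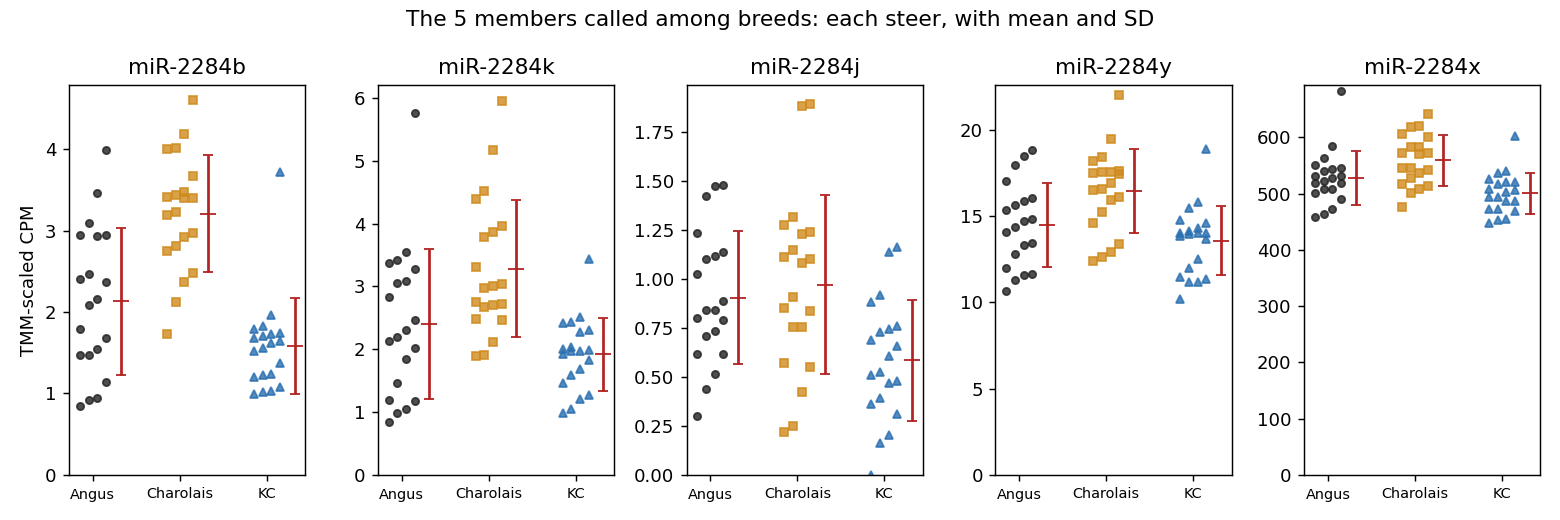
TMM-scaled CPM of the 5 members called among breeds in each of 20 steers per breed; red bars are mean and SD, and each panel has its own axis from 0. Medians were highest in Charolais and lowest in KC in all 5 panels, and the groups overlap in each. Member j passed the filter only through the Charolais steers.

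In KC over Charolais all 5 called members were lower, counting j, which passed the filter only through the Charolais steers. Of all miRNAs tested, 6.41% were called lower. Without j, and among the miRNAs that pass the filter with any 1 breed set aside, 4 of 12 members were lower, where 6.53% of 398 miRNAs were. Thinning every library to the same total, or using only the 36 steers with an RFI group, left b and x called and ended the calls of k and y. With library totals alone x lost its call, and with library total as a covariate y did. The median log2 fold change was -0.18 over the 14 tested members and -0.01 over all 421. In Charolais over Angus 1 of 14 was called higher, where 1.9% of all were, and the median was 0.10. In KC over Angus 0 of 14 were called with edgeR, against 6.41% of all miRNAs. With DESeq2 the count was also 0, and the share of all miRNAs was not counted. At an unadjusted p under 0.05, 4 members (b, j, aa and z) were lower in KC than in Angus, against 23% of all miRNAs in either direction. These 3 comparisons share steers. Members z and aa did not pass in any pair of breeds, with Charolais over Angus at -0.16 ± 0.06 and -0.18 ± 0.08 (log2, edgeR, adjusted p = 0.13 and 0.158). Outside the family, miR-2285ai-5p, which matches ac, was not called in KC over Charolais, at 0.22 ± 0.13 (edgeR, adjusted p = 0.273). Nor was miR-2285av, which matches y, at -0.08 ± 0.12 (edgeR, adjusted p = 0.767). Within the family x also matches y, and both x and y were called there.

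The largest sire families are set beside these differences. The largest KC family, 8 steers, had 448 to 518 CPM of x (median 473), against 470 to 602 CPM (median 514) in the other 12 KC steers. The largest Charolais family, also 8 steers, was at a median of 594 CPM against 541 CPM in the other 12. Without the largest family of each breed, KC over Charolais was -0.08 for x (adjusted p = 0.508) and -0.20 for y (adjusted p = 0.301), while b remained at -0.80 and k at -0.83 with both called. The liver marker miRNAs miR-122 and miR-885 differed over the 3 breeds (edgeR, adjusted p = 0.04 and 0.00182), but in KC over Charolais they were at -0.09 ± 0.09 and 0.24 ± 0.12 (log2, adjusted p = 0.596 and 0.19). None of the 13 markers tested of 15 was called in that comparison, and the part of other cells in these differences was not tested.

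The RFI comparison asked whether members differ between feed-efficient and inefficient steers of a breed. No member was called in the main fits, and calls under other settings are given below. Tests covered 10, 10 and 11 members in Angus, Charolais and KC, and 0 met the rule of an unadjusted p under 0.05 with a fold change above 1.5, against 2.41%, 1.88% and 1.86% of all miRNAs. At an unadjusted p under 0.05 alone the count was also 0 in each breed with edgeR, against 3.75%, 5.09% and 3.98% of all miRNAs. With DESeq2 it was 0 in each breed too, and the share of all miRNAs was not counted. Low-RFI and high-RFI steers overlapped for every member tested, in each breed. The share of all miRNAs that overlapped was not counted.

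The values behind these counts were close for the abundant members. miR-2284x had 464 to 541 CPM in low-RFI Angus (median 505) and 473 to 531 CPM in high-RFI Angus (median 520). In Charolais the ranges were 508 to 641 CPM (median 571) and 517 to 620 CPM (median 557), and in KC 455 to 540 CPM (median 504) and 473 to 602 CPM (median 513). Its log2 fold change of low-RFI over high-RFI was -0.01 ± 0.07, 0.03 ± 0.10 and -0.04 ± 0.07 (SE, n = 6 and 6, edgeR, adjusted p = 0.993, 0.999 and 0.994). Members z, aa and y lay between -0.12 and 0.12 on the log2 scale in the 3 breeds, with standard errors of 0.11 to 0.19.

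The smallest p of each breed belonged to less abundant members. In Angus v was 1.6 to 3.3 CPM in low-RFI steers and 2.07 to 5.54 CPM in high-RFI steers, a log2 fold change of -0.47 ± 0.28 (edgeR, adjusted p = 0.969). With sire as a block v met the fold and unadjusted p rule in Angus, at -1.19 on the log2 scale. That value rests only on sires with steers in both groups. These were 1 sire with 1 low-RFI and 2 high-RFI steers, and 1 sire with 1 of each. In that fit 0 of 10 members passed after adjustment, and the share of all miRNAs was not counted. In Charolais k was 2.70 to 4.52 CPM against 1.89 to 3.30 CPM, at 0.42 ± 0.24 (adjusted p = 0.905), and each of the 6 low-RFI values exceeded the median of the high-RFI group. An exact two-sided permutation test over every relabeling of the 12 steers gave p = 0.0346 for k, and 0.877 after adjustment over all miRNAs of the fit. In KC w was 7.45 to 16.1 CPM against 9.43 to 16.7 CPM, at -0.39 ± 0.20 (adjusted p = 0.994, exact permutation p = 0.0779, 0.99 after adjustment). Without KC 2 it met the rule, at -0.59.

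The Charolais values of ac and c are given because both are among the members named by rule. The study reported both as differentially expressed in Charolais under the same rule, ac higher and c lower in low-RFI steers. Here neither was called in the main fit, and the reason for the difference was not tested. miR-2284ac was 1.89 to 7.83 CPM in low-RFI Charolais (median 4.78) and 1.5 to 6.24 CPM in high-RFI Charolais (median 3.34), and 5 of the 6 low-RFI values exceeded the median of the high-RFI group. Its log2 fold change was 0.49 ± 0.31 (edgeR, adjusted p = 0.987, exact permutation p = 0.273, 0.967 after adjustment). It met the fold and unadjusted p rule once low-RFI steer 1 or high-RFI steer 20 was left out, at 0.66 and 0.77. miR-2284c had 0 to 1.06 CPM in low-RFI Charolais (median 0.406, 10 counts in all) and 0.183 to 2.60 CPM in high-RFI Charolais (median 1.32, 36 counts in all), with at most 3 counts in 5 of 6 low-RFI steers, and it did not pass the filter there. Without that filter it met the rule in Charolais, at -1.58 on the log2 scale, and in Angus, at 1.54, in opposite directions.

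**Figure D4:**
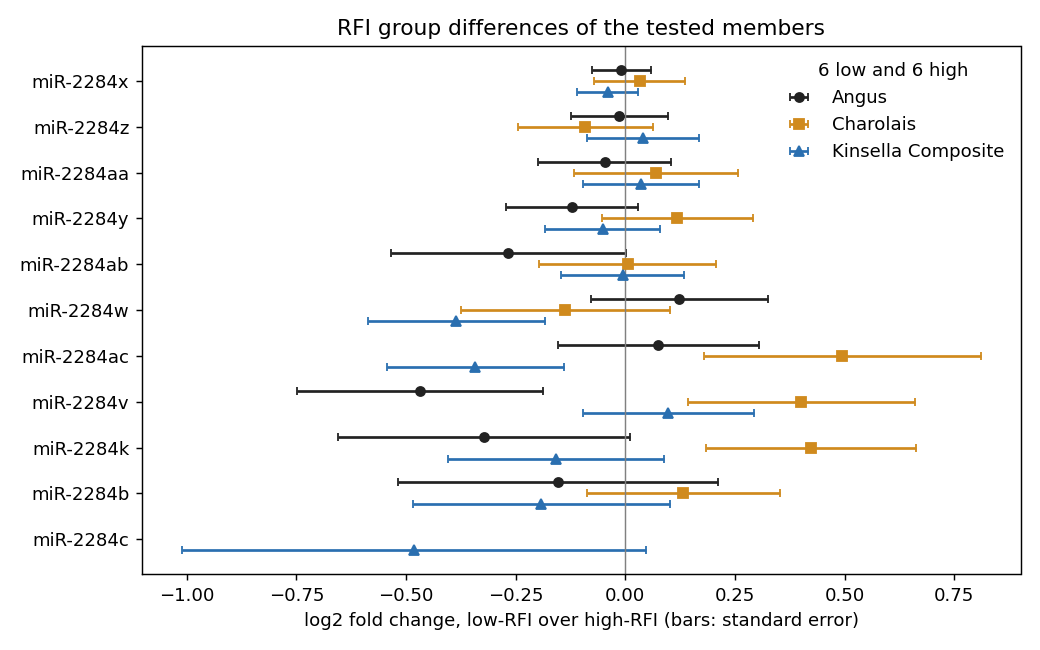
Log2 fold change of low-RFI over high-RFI for the members tested in each breed, with standard errors as horizontal bars, for 6 against 6 steers in each breed. Abundant members at the top lie near 0, and the bars widen for ac, v, k, b and c.

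Over all 36 steers with an RFI group, with breed as a factor, 0 of 14 tested members had an adjusted p under 0.05 with edgeR, and 0 had an unadjusted p under 0.05, by edgeR or DESeq2. The shares over all 422 miRNAs were 0% and 2.84% with edgeR, and were not counted with DESeq2. The log2 fold changes of members ran from -0.28 for c to 0.25 for f, with a median of -0.02, and the smallest p was 0.246, for w (edgeR, n = 36). The test of whether the RFI difference varied among breeds called 0 of 14 members after adjustment, as for 0% of all miRNAs. At an unadjusted p under 0.05 it had 2, c and v, against 4.03% of all miRNAs. Both had an adjusted p of 0.994.

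Sire families were compared within each breed among sires with at least 3 steers, that is 3 families with 14 steers in Angus, 4 with 18 in Charolais and 2 with 11 in KC. With edgeR 0 of 14, 0 of 15 and 0 of 12 tested members had an adjusted p under 0.05, where 0%, 0.467% and 0% of all miRNAs did. At an unadjusted p under 0.05 the counts were 1 (ab), 3 (ac, c and o) and 1 (aa), against 6.43%, 9.35% and 4.25% of all miRNAs. The likelihood-ratio test called ac and c in Charolais, and DESeq2 called c. The share of all miRNAs called by those tests was not counted.

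For ac the largest Charolais family was the lowest by its median. Its 8 steers had 1.89 to 4.96 CPM (median 3.34), a family of 4 had 4.02 to 4.45 CPM, and the families of 3 had 5.91 to 7.83 CPM and 4.4 to 5.52 CPM (edgeR, adjusted p = 0.0987). For c the order differed. The largest family had 0.378 to 2.60 CPM (median 1.41), the family of 4 had 0 to 0.495 CPM with at most 3 counts in every steer, and the families of 3 had 0.435 to 1.46 CPM and 1.06 to 3.39 CPM (edgeR, adjusted p = 0.0987). Family and RFI group overlap here. Of the 6 high-RFI Charolais steers 4 came from the largest family and 2 from 1 further sire, whereas the 6 low-RFI steers came from 4 sires with 1 steer from the largest family. With 4 steers of 1 sire among 6, sire and RFI group cannot be told apart for ac and c in Charolais.

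**Figure D5:**
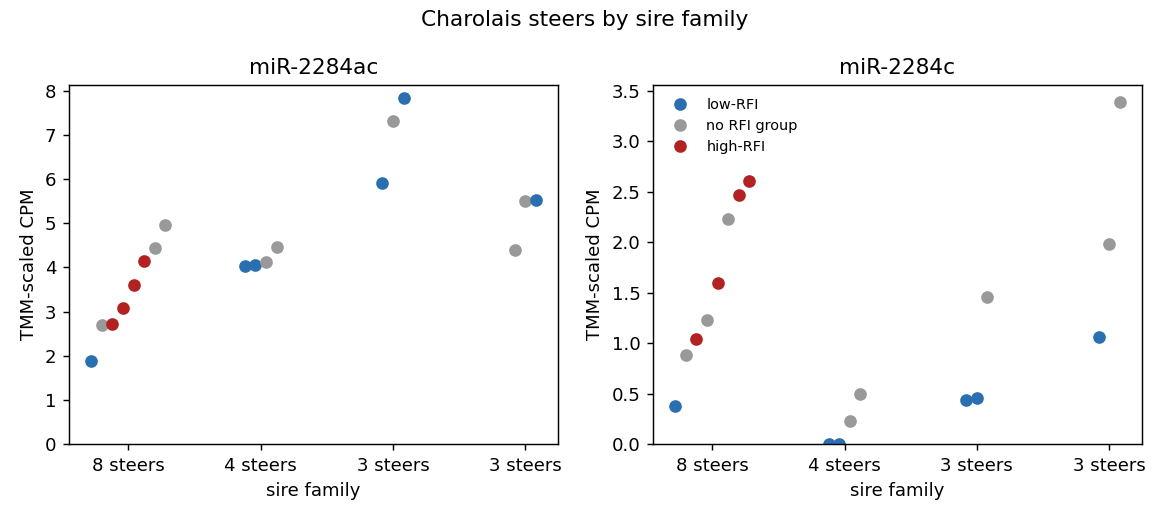
TMM-scaled CPM of miR-2284ac and miR-2284c in 18 Charolais steers of the 4 sires with at least 3 steers, coloured by RFI group; each point is 1 steer, ordered by level within its family. The 4 high-RFI steers shown all belong to the family of 8.

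In Angus ab had the smallest unadjusted p of all 420 miRNAs between families. The largest family, 6 steers, had 6.99 to 12.6 CPM (median 9.42), a family of 5 had 13.1 to 22.4 CPM (median 16) and a family of 3 had 14.2 to 17.5 CPM. The largest family did not overlap the others, but after adjustment over 420 miRNAs the difference did not pass (adjusted p = 0.535 in the edgeR fit).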

How the data were processed

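Liver RNA was extracted with the RNeasy Plus Universal Mini kit and libraries were made with the TruSeq Small RNA kit, per the labels. Per the submitters' notes and the study's methods, bcl2fastq 2.17.1.14, FastQC 0.11.7 and cutadapt 1.16 were used, reads of 15 to 28 bases were kept, other small RNAs were removed, and miRDeep2 with Bowtie 1.1.1 counted the rest on UMD3.1 and miRBase 22. The deposited values are raw counts per mature miRNA and precursor, 1 table per steer, in which a read can be counted on more than 1 precursor.

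Only combinations listed for all 3 breeds were used, and counts were averaged over the precursors of a mature miRNA. edgeR 4.0.16 (R 4.3.3) was run on every miRNA that reached 1 CPM in a minimum of 10 of 60, 6 of 36, 6 of 12 or, for sires, 3 steers, with TMM and Benjamini-Hochberg adjustment over all miRNAs tested. Calls used an adjusted p under 0.05, and RFI within breeds the study's rule of p under 0.05 and a fold change above 1.5. Averages that were not whole were rounded to whole counts before edgeR and DESeq2 1.42.0. Single-member RFI values were permuted on log2(CPM + 0.5). Steers of a group are separate animals. The fits were tested on simulated counts, with 1 spread set for all miRNAs and not matched to these data. At an adjusted p under 0.05, the edgeR RFI fits of Angus, Charolais and KC found 20.8%, 23.9% and 41.5% of the 1.5-fold changes. They found 74.3%, 71.1% and 82% of the larger changes that were set.

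Members and lists were chosen with earlier results of these data known. The text names the 8 most abundant members, those called, those with the 3 smallest p of each fit where values add to the account, those with combinations listed for KC alone, and miR-2284x, ac and c, which the study names. Sequences are from the study's supplementary list of expressed miRNAs. Alternatives were other scalings, filters, tests, precursor rules, equal depth, covariates and left-out steers. Floors cover counting error only.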

Additional observations from a re-analysis of the deposited data

Results flagged for a closer look

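Dixon's test was run on log2 levels of 12 members in the 6 RFI groups of 6 steers each, 72 groups in all, and 4 had 1 steer apart from the other 5. Chance alone flags about 1 in 20 groups. miR-2284x in high-RFI Angus steer 15 was at 473 CPM, below 518 to 531 CPM in the others. miR-2284ab in low-RFI Charolais steer 14 was at 7.83 CPM, below 12.5 to 16.3 CPM. miR-2284j was at 0.217 CPM in the same steer, from 1 count, below 0.754 to 1.08 CPM. miR-2284j in low-RFI Angus steer 3 was at 0.298 CPM, again from 1 count, below 0.706 to 1.02 CPM. The causes were not tested.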

How the results depend on the processing

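The count of members called over the 3 breeds was 5, and 2 with library totals alone, the filter at 5 CPM, thinning to equal totals, the 36 steers with an RFI group, or without the largest sire family of each breed. It was 4 with DESeq2, upper-quartile scaling, the highest precursor count or library total as a covariate. With all combinations listed for a breed it was 7. The share of all miRNAs called was not counted under the alternatives in this paragraph. Leaving out 1 steer gave 3 to 6, with 3 without Charolais 5 or Charolais 15. For KC against Charolais the count of 5 became 2 with the 5 CPM filter, thinning, 36 steers or without the largest families, and 3 with library total as a covariate. It became 4 with library totals alone, 6 without the filter and 7 with all combinations. For Charolais against Angus the count of 1 became 0 with library totals alone, 5 CPM, thinning, 36 steers or without the largest families. For KC against Angus the count of 0 became 3 with all combinations listed for a breed, and 0 to 1 with 1 steer left out (b, without KC 16). The 5 CPM filter removes b, k and j. Of the 5 members, b was called in all 14 alternatives that tested it for KC against Charolais. The call was lost in 2 of 14 for k (thinning and 36 steers), in 2 of 15 for x (library totals alone and without the largest families) and in 4 of 15 for y (thinning, 36 steers, library total as a covariate and without the largest families). Member j, which passed the filter only through the Charolais steers, lost its call in 4 of 14 and in 3 of 60 leave-outs (without Charolais 12, Charolais 13 or KC 6). The direction was kept except for y, which turned to 2.15 with all combinations.

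Between RFI groups the count of 0 became 1 in Angus (c) and 1 in Charolais (c) without the filter. It became 1 in Angus with sire as a block (v, at -1.19), from only the steers whose sire had both groups. Leaving out 1 steer gave 0 to 1 in Charolais (ac, without Charolais 1 or Charolais 20) and 0 to 1 in KC (w, without KC 2). Between Charolais sires the count of 0 became 1 with 5 CPM, 2 with the likelihood-ratio test and 1 with DESeq2. The share of all miRNAs called was not counted under those settings. Detection at 1 CPM or more in at least 10 of 20 steers gave 11 members in Angus, 12 in Charolais, 10 in KC and 10 in all 3. The summed level was 993, 970 and 932 CPM with precursor counts summed, and 710 CPM in KC with all combinations. The cause was not tested where the setting's own construction does not give it.

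The title number as a replicate block left 5 members called over the 3 breeds and 5 for KC against Charolais, the same 5 in each. Deviations of steers with the same number had a median correlation of 0.00 over 60 pairs, with a range of -0.247 to 0.366. Of these pairs 12 exceeded 0.1, and 5 of 60 steers correlated best with their own number. Whether a number stands for a shared pool or order of processing was not tested.

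Depth limits the 17 members that were not tested between breeds, whose medians were 0 to 2 counts per steer, with up to 9 in 1 steer.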

Other observations

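The combination of miR-2284h-5p with a precursor of y carried a median of 75 counts in KC, where h-5p on its own precursor had a median of 0. Averaging it in would raise h-5p to a median of 37.5 counts per KC steer, a log2 fold change of 5.24 over Charolais and 5.27 over Angus. The same step gave 0.98 and 0.81 for aa.

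The precursors of the family are spread widely. Of 44 precursors with a member, 43 were found by name in the RefSeq gene table (assembly ARS-UCD2.0, used for names only), on 23 chromosomes with at most 5 on any 1. Where a member had several precursors their counts were not equal, with a median gap between the highest and the lowest of 8.77% for z, 16.7% for aa and 30.4% for y over 60 steers.

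miR-2284l was at or under the limit of detection in every steer, with 9 counts in total in Charolais, 2 in Angus and 0 in KC.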
